A study of Mus musculus with 30 samples.

Results

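The question here is whether gene expression changes differently, from libraries named ctrl to libraries named 24h, in WT and in Cacnb3-/- BMDCs, dendritic cells grown from mouse bone marrow in medium with GM-CSF. All 20 libraries with these names were used, of 30 in the series, and they come from 5 WT and 5 Cacnb3-/- cultures with 1 ctrl and 1 24h library each. For each culture the change from ctrl to 24h was taken, and the 5 changes of one genotype were compared with the 5 of the other. Cells were cultured for 6 days, and ATP at 500 µM was given for 30 min, with the 24h libraries collected 24 hours later. The labels contradict themselves, since ctrl libraries carry a treatment entry of 30 min of ATP, whereas 0p5h libraries carry the entry vehicle. The labels alone do not settle which set was unstimulated, and both are called by their names. The paper describes an unstimulated state and samples 30 min and 24 hours after an ATP pulse. Levels of Fosb, a gene induced within minutes of a stimulus, were higher in 0p5h than in ctrl libraries, with values given below. WT mice were C57BL/6J and Cacnb3-/- mice C57BL/6N in the methods, aged 6 to 12 weeks, so genotype and substrain cannot be told apart. Wherever values are listed by culture, Cacnb3-/- comes in the order p974s843, p974s851, p974s852, p974s853, p974s865, and WT in the order p974s846, p974s850, p974s855, p974s856, p974s864.

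Cacnb3 encodes the β3 subunit of voltage-gated calcium channels. Extracellular ATP, released by stressed and dying cells, acts on dendritic cells through P2 receptors and raises cytosolic calcium. Dendritic cells also keep an interferon program at low level. In it, signals from the type I interferon receptor act at interferon-stimulated response elements (ISRE) and turn on antiviral genes, among them Irf7, which in turn amplifies interferon production. GM-CSF cultures of bone marrow contain macrophage-like cells beside dendritic cells. In bulk libraries, fewer cells of a type and less RNA per cell cannot be told apart.

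Reads of Cacnb3 (ENSMUSG00000003352, chromosome 15) were counted in every library, as counts per 1000000 normalized counts (CPM), between 1160 and 1400 in WT ctrl, 1320 and 2190 in WT 24h, 787 and 1330 in ctrl libraries labelled Cacnb3-/- and 580 and 1320 in their 24h libraries. The counts are summed over all exons of a gene, so they do not check a deletion of part of it, and the genotype below is the one on the label. The log2 difference between the genotypes in its change was -0.49 (standard error 0.29, edgeR adjusted p = 0.339). Over the 20 libraries, medians of 13 dendritic cell identity markers ranged from 0.109 CPM (Cd209a) to 12500 CPM (Cd74). Among them H2-Aa, an MHC class II chain, had a median of 6660 CPM. Zbtb46, a factor of conventional dendritic cells, had a median of 122 CPM. The 24h library of Cacnb3-/- culture p974s843 stood apart. It held 8237393 counts, the fewest of the 20 (range 8237393 to 26425018), and its mitochondrial share was 16.5%, against 4.83% in the ctrl library of the same culture.

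Testing 13536 genes with the culture number as a block, edgeR called 16 genes, all with a more positive change in cultures labelled Cacnb3-/-, and 0 in the other direction. A call needed an adjusted p under 0.05 (edgeR quasi-likelihood test, Benjamini-Hochberg adjustment over all genes) and a difference of at least 2-fold. These are 0.118% and 0% of the genes tested. At an unadjusted p under 0.05 there were 1499 genes with a more positive change (11.1%) and 1140 with a more negative one (8.42%). The 16 genes were Btla, Slfn4, Ifi206, Ifi205, Oas2, Cxcr5, Plac8, Rtp4, Slfn1, Orm1, Pgf, Irf7, Oasl2, Il6, Ifi44 and Ly6i, with log2 differences between 1.38 and 2.97 and a smallest adjusted p of 0.00101 (edgeR). In all 16 of them the 5 Cacnb3-/- changes lay above the 5 WT changes, which held for 167 genes of all those tested (1.23%), while 154 (1.14%) were separated the other way. The calls rest on these same changes, so the separation of the 16 describes them and is no further support. In 15 of the 16, all 5 cultures labelled Cacnb3-/- had a higher level at 24h than at ctrl. The exception was Pgf.

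Without the block, edgeR called 0 genes, with 658 at an unadjusted p under 0.05, so the result rests on reading the number as one culture. The count also depended on single cultures. It was 6 without Cacnb3-/- culture p974s853, 6 without WT culture p974s855, 8 without Cacnb3-/- culture p974s852, and 44 without Cacnb3-/- culture p974s865. Without p974s843, the culture that stood apart, 13 genes were called and 12 of them were among the 16. The 4 that were lost were Ifi44, Il6, Irf7 and Ly6i.

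**Figure D1:**
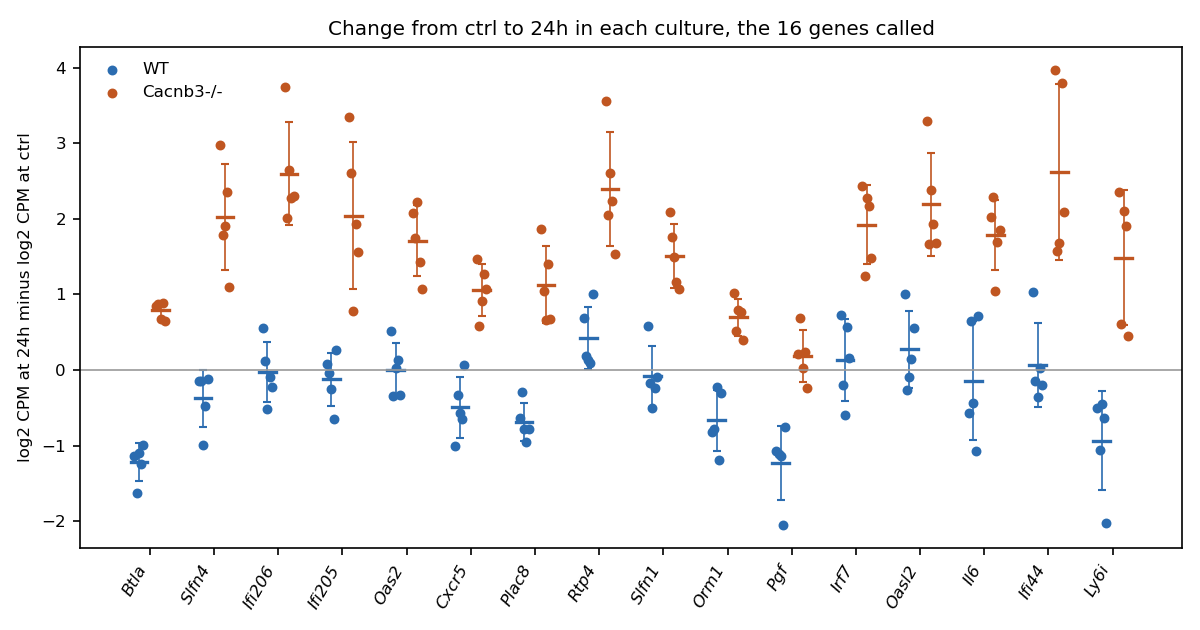
Change of each called gene from ctrl to 24h (y axis, log2 CPM at 24h minus log2 CPM at ctrl, prior count 2) in the 5 WT (blue) and 5 Cacnb3-/- (orange) cultures. Points are cultures, horizontal lines the means and error bars the SD, and in each of the 16 genes every orange point lies above every blue one.

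A first group among the called genes is known to be induced by interferon. Irf7, Oas2, Oasl2, Rtp4, Ifi44, Ifi205 and Ifi206, and the Schlafen genes Slfn1 and Slfn4, rose in cultures labelled Cacnb3-/- and did not pass the test in WT. Promoters were searched for letters bound by factors of this and other pathways. RefSeq (GRCm38.p6) gives windows from 250 bases before to 50 bases after the transcription start for 11 of the 16 genes. The ISRE letters GAAANNGAA, on either strand, were in a window of 4 of these 11 genes (36.4%), Btla, Ifi206, Ifi205 and Ifi44, against 8.76% of 10064 tested genes with a window and 8.56% of all 32851 windows. In the list of type I interferon-stimulated genes below, 23 of 43 genes with a window held them (53.5%). In Ifi44 the match begins 3 bases before the start and runs across it, and Ifi205 has a second match 25 bases after the start. The windows of Irf7 and Oasl2 held none of the motifs searched. A match is a description of letters, not of binding. The 250 bases before the start are shown for the genes whose ISRE match lies wholly upstream, with the match in capitals, and for Il6 with its match to the kappa B letters GGNNTTTCC in capitals.
Btla: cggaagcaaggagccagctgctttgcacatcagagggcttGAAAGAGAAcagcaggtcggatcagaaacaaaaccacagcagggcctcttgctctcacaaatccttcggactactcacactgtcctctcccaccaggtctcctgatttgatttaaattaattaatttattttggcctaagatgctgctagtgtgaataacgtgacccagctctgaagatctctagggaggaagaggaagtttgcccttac
Ifi206: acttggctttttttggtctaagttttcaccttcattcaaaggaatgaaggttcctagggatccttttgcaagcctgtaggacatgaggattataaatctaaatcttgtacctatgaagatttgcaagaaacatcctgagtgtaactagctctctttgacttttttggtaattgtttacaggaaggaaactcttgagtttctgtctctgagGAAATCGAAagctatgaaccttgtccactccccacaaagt
Ifi205: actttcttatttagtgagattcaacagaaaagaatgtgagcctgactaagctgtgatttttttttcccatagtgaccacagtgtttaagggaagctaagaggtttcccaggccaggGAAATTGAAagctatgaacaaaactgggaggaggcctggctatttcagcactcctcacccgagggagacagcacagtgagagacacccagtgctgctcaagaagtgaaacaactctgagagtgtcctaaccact
Il6: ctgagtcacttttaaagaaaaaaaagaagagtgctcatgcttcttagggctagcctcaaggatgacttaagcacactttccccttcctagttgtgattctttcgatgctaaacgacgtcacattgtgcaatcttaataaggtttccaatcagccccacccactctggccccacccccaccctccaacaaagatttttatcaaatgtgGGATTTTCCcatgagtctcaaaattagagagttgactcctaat

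On GRCm38.p6 these lie at chr16:45224087-45224336 on the forward strand (Btla), chr1:173491319-173491568 on the reverse strand (Ifi206), chr1:174031756-174032005 on the reverse strand (Ifi205) and chr5:30012864-30013113 on the forward strand (Il6). Ifi205 and Ifi206 are genes of one family of DNA sensors on chromosome 1. From the first base of the match they shared 18 of 19 bases. The difference was T6C, counted from that base, with the base of Ifi205 first. The comparison began with the matched letters, most of which the search fixes, and stopped before the next differing base. The length and identity of this run are thus partly set by the rule. The kappa B letters were in the windows of 2 of the 11 called genes (18.2%), Il6 and Plac8, against 7.35% of the tested genes. The AP-1 letters TGANTCA were also in 2 (18.2%), Il6 and Slfn4, against 6.37%. The GAS letters TTCNNNGAA, the CRE letters TGACGTCA and the CArG box were in 0 of the 11, against 8.06%, 3.53% and 1.5% of the tested genes, and the E-box CACGTG was in 1, Btla, against 11.5%.

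Irf7 (ENSMUSG00000025498, chromosome 7, 141262706 to 141266481) encodes the factor that amplifies interferon production. In WT it stood at 133, 34.5, 348, 109 and 6.02 CPM at ctrl and at 221, 30.0, 231, 162 and 6.75 CPM at 24h. In cultures labelled Cacnb3-/- it stood at 9.96, 15.4, 3.62, 7.27 and 8.52 CPM at ctrl and at 54.3, 36.9, 17.9, 33.1 and 24.0 CPM at 24h. At ctrl every WT culture but p974s864 lay above all Cacnb3-/- cultures, at 24h the ranges overlapped, and every Cacnb3-/- culture was higher at 24h. The log2 change was 1.91 in Cacnb3-/- and 0.14 in WT (edgeR adjusted p = 0.000223 and 0.748), and the difference was 1.77 (standard error 0.28, edgeR adjusted p = 0.0149).

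Oasl2 (ENSMUSG00000029561, chromosome 5, 114896936 to 114912234), of the 2′-5′ oligoadenylate synthetase family that senses viral RNA, had the same shape. Its WT levels were 80.3, 38.7, 132, 76.8 and 5.56 CPM at ctrl and 161, 32.3, 124, 85.1 and 8.24 CPM at 24h. Its Cacnb3-/- levels were 9.45, 15.4, 5.55, 8.31 and 8.26 CPM at ctrl and 93.4, 49.2, 29.2, 32.1 and 26.6 CPM at 24h. The ctrl ranges of the genotypes overlapped only through WT culture p974s864. The difference of the changes was 1.93 (standard error 0.31, edgeR adjusted p = 0.0149). Oas2, an enzyme of the same family that makes the activator of RNase L, differed by 1.70 (standard error 0.24, edgeR adjusted p = 0.0109), with changes of 1.07 to 2.22 in Cacnb3-/- and -0.34 to 0.52 in WT cultures.

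Rtp4, a chaperone of receptor transport that interferon induces, was counted with 32 reads or more in every library. In WT it stood at 22.1, 12.6, 19.5, 23.2 and 1.63 CPM at ctrl and at 35.5, 14.4, 21.3, 24.7 and 3.40 CPM at 24h, and in Cacnb3-/- at 3.20, 5.60, 2.73, 2.66 and 3.47 CPM and then at 38.9, 23.5, 17.1, 13 and 10.3 CPM. All 10 cultures were higher at 24h, and the Cacnb3-/- cultures by more, with a difference of 2.05 (standard error 0.31, edgeR adjusted p = 0.0143). Ifi44, an interferon-induced gene linked to restraint of virus growth, differed by 2.77 (standard error 0.47, edgeR adjusted p = 0.0289), from 4 to 20 reads per Cacnb3-/- ctrl library. Ifi206 and Ifi205 differed by 2.97 and 2.68 (standard errors 0.37 and 0.37, edgeR adjusted p = 0.00342 and 0.00842), from 3 to 9 and from 4 to 10 reads per Cacnb3-/- ctrl library. Fold changes from so few reads are imprecise, and reads may be shared among the near-identical members of the Ifi200, Oas, Schlafen and Ly6 families.

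**Figure D2:**
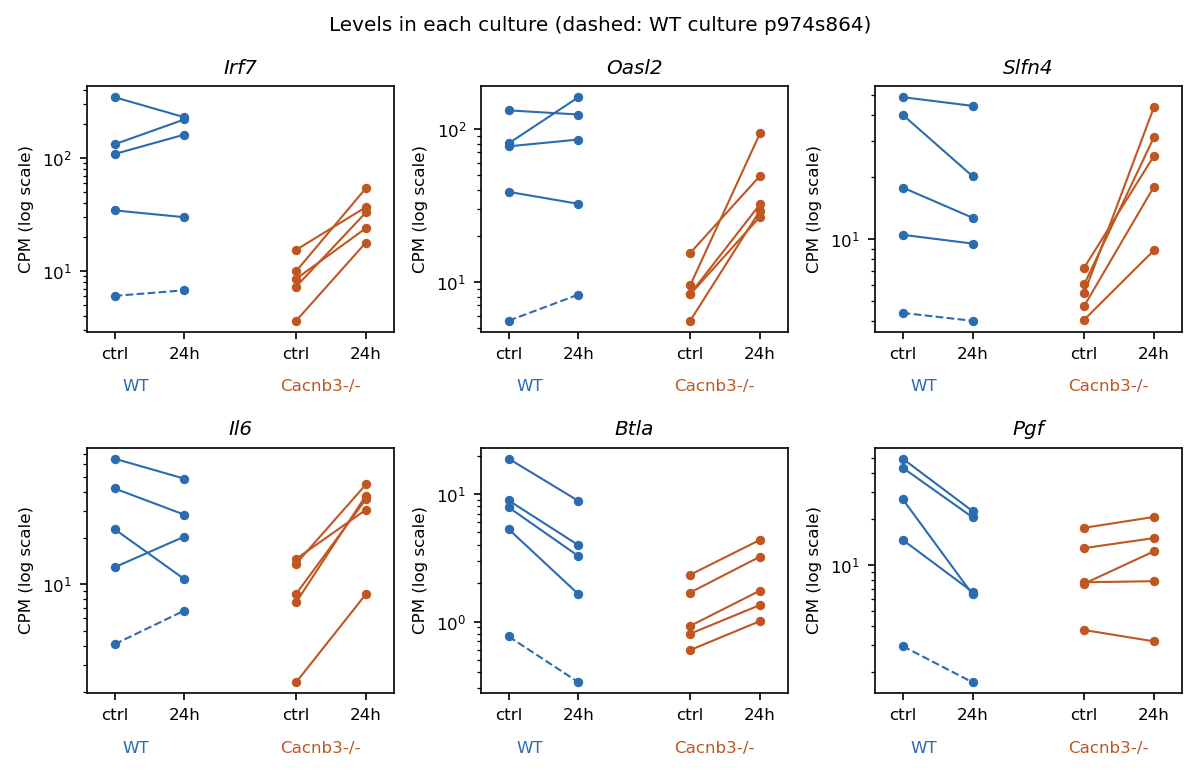
Level of 6 of the called genes in each culture at ctrl and 24h (y axis, CPM on a log scale), WT in blue and Cacnb3-/- in orange, with a line joining the 2 libraries of a culture. In Irf7, Oasl2, Slfn4 and Il6 the orange lines rise from low ctrl levels, in Btla and Pgf the blue lines fall, and the dashed WT culture p974s864 lies at the level of the Cacnb3-/- ctrl libraries or below.

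Across the list of type I interferon-stimulated genes, 54 of 58 tested members had a more positive change in Cacnb3-/- (93.1%, against 48.9% of all genes tested). The list was chosen with earlier results of these data known, so its direction is a description. Of its members 6 were called (0.118% of all genes) and 11 were separated between the genotypes (1.23% of all genes on this side). An unadjusted p under 0.05 was found for 40 in this direction (11.1% of all genes) and 0 in the other (8.42%). The median log2 difference was 0.62, from a median change of 0.81 in Cacnb3-/- and 0.20 in WT, against -0.01 over all genes. By culture the median change was 1.16, 0.84, 0.72, 0.83 and 0.49 in Cacnb3-/- and 0.66, -0.07, -0.04, 0.24 and 0.18 in WT. These overlap through WT culture p974s846 and Cacnb3-/- culture p974s865. The 2 libraries of p974s846 were run on different lanes, and those of p974s865 on the same lane. Different lanes were also used for Cacnb3-/- culture p974s852, which lay above all WT cultures. Members that did not pass over all genes included Ifit1, a sensor of viral RNA caps, at 1.97 (standard error 0.47, edgeR adjusted p = 0.182), Isg15, a ubiquitin-like modifier, at 1.52 (standard error 0.39, edgeR adjusted p = 0.233), and Rsad2, the antiviral enzyme viperin, at 1.63 (standard error 0.45, edgeR adjusted p = 0.233).

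Neighbouring groups leaned the same way with fewer calls. All 13 tested interferon-inducible GTPases, which act on vacuoles that hold pathogens, had a positive difference, with a median of 0.55, 7 at an unadjusted p under 0.05 and 0 called. Over all genes, 11.1% had such a p on this side and 0.118% were called. With each library's trend on GC content removed, as described below, 12 of the 13 GTPases were positive, with a median of 0.41. Such a p was then found for 3 of them, and for 722 of the 13536 genes tested on this side. Gbp2b differed by 0.82 (standard error 0.21, edgeR adjusted p = 0.232). All 7 Schlafen genes were positive too, with a median of 0.61 and 2 called. With GC trends removed 6 of the 7 were positive, with a median of 0.48. Slfn4, a myeloid member that interferon induces, stood in WT at 48.8, 10.5, 40.1, 17.8 and 4.39 CPM at ctrl and at 44.3, 9.52, 20.2, 12.7 and 4.02 CPM at 24h. In Cacnb3-/- it stood at 5.47, 7.28, 4.75, 6.04 and 4.07 CPM at ctrl and at 43.8, 25.4, 18, 31.3 and 8.84 CPM at 24h. It was thus lower at 24h in 5 of 5 WT cultures, a change that did not pass the test, and higher in 5 of 5 Cacnb3-/- cultures, with a difference of 2.45 (standard error 0.29, edgeR adjusted p = 0.00296). Slfn1 differed by 1.63 (standard error 0.25, edgeR adjusted p = 0.0148). ISG15 conjugation genes leaned little, with 4 of 6 positive and a median of 0.17.

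Of the Ly6 family and Plac8, small surface or lysosomal proteins of myeloid cells, 6 of 8 tested genes had a positive difference, with a median of 0.75 and 2 called (0.118% of all genes). Plac8 differed by 1.82 (standard error 0.27, edgeR adjusted p = 0.0125), rising in Cacnb3-/- by a log2 change of 1.12 and falling by 0.70 in WT (edgeR adjusted p = 0.00539 and 0.0264). Ly6i differed by 2.12 (standard error 0.37, edgeR adjusted p = 0.0369) and was called in 10 of 22 other settings, the fewest of the 16. Ly6a, better known as Sca-1, was at 1.90 (standard error 0.43, edgeR adjusted p = 0.159), and Ly6g, the granulocyte marker, leaned the other way at -0.77 (standard error 0.37, edgeR adjusted p = 0.265).

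Btla (ENSMUSG00000052013, chromosome 16, 45224315 to 45252895), an inhibitory receptor of lymphocytes and dendritic cells, had the lowest p and moved in opposite directions. In WT it stood at 8.90, 5.30, 18.9, 7.86 and 0.766 CPM at ctrl and at 3.97, 1.64, 8.82, 3.26 and 0.335 CPM at 24h. In Cacnb3-/- it stood at 0.926, 2.33, 0.804, 1.69 and 0.599 CPM at ctrl and at 1.75, 4.37, 1.35, 3.23 and 1.01 CPM at 24h. The Cacnb3-/- ctrl levels rest on 10 to 32 reads per library. All 5 WT cultures fell, by 0.98 to 1.63 on the log2 scale, and all 5 Cacnb3-/- cultures rose, by 0.66 to 0.89. The changes passed in both genotypes (-1.27 and 0.86, edgeR adjusted p = 0.000597 and 0.00706) and their difference was 2.13 (standard error 0.22, edgeR adjusted p = 0.00101). Of 23 tested costimulatory and checkpoint genes, 20 had a positive difference (48.9% of all genes), with a median of 0.28. Btla alone of them was called (0.118% of all genes). Cd86, a ligand of CD28, stood at 0.34 (standard error 0.14, edgeR adjusted p = 0.235) and Icosl, the ligand of ICOS, at -0.57 (standard error 0.20, edgeR adjusted p = 0.233).

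Pgf, a ligand of VEGF receptor 1, fell in WT and did not pass in Cacnb3-/-. Its WT levels were 43.1, 14.6, 49.4, 26.9 and 2.96 CPM at ctrl and 20.5, 6.69, 22.5, 6.44 and 1.72 CPM at 24h, against 12.9, 7.57, 7.72, 17.5 and 3.77 CPM and then 15, 12.3, 7.85, 20.6 and 3.18 CPM in Cacnb3-/-. All 5 WT cultures were lower at 24h. The difference was 1.46 (standard error 0.23, edgeR adjusted p = 0.0149). Orm1, an acute-phase protein, also fell in WT, by 0.71 on the log2 scale, and rose by 0.68 in Cacnb3-/- (edgeR adjusted p = 0.0098 and 0.0163), a difference of 1.38 (standard error 0.21, edgeR adjusted p = 0.0148). Cxcr5, the receptor of CXCL13 that guides cells to B cell follicles, changed by -0.996, -0.33, -0.57, -0.65 and 0.07 in the WT cultures and by 1.47, 0.58, 0.91, 1.27 and 1.07 in the Cacnb3-/- cultures. Its difference was 1.64 (standard error 0.24, edgeR adjusted p = 0.0125), and of the 12 tested chemokine receptors it was the one called (0.118% of all genes). Of the 12, 9 were positive (48.9% of all genes), with a median of 0.41. With GC trends removed 10 were positive, with a median of 0.25. Receptors at an unadjusted p under 0.05 on this side then went from 4 to 1.

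Among cytokines of dendritic cells, 16 of 19 tested genes had a positive difference (84.2%, against 48.9% of all genes tested). Their median was 0.50, and 1 was called (0.118% of all genes). Il6 (ENSMUSG00000025746, chromosome 5, 30013161 to 30019968) stood in WT at 41.9, 12.9, 65.4, 22.8 and 4.08 CPM at ctrl and at 28.3, 20.4, 48.5, 10.8 and 6.75 CPM at 24h. In Cacnb3-/- it stood at 8.66, 7.64, 14.6, 13.6 and 2.31 CPM at ctrl and at 35.7, 37.7, 30.5, 44.5 and 8.63 CPM at 24h. WT cultures went either way and Cacnb3-/- cultures rose, with a difference of 1.97 (standard error 0.33, edgeR adjusted p = 0.0208). Il1b, the inflammasome product, missed the threshold at 1.28 (standard error 0.24, edgeR adjusted p = 0.0582). In the CC chemokines, Ccl4 stood at 1.47 (standard error 0.33, edgeR adjusted p = 0.159), and in the CXC chemokines Cxcl3 at 1.12 (standard error 0.25, edgeR adjusted p = 0.157), with 7 of 9 genes positive in each list. With GC trends removed 5 of 9 were positive in each list, and Ccl4 stood at 1.47 and Cxcl3 at 0.85 (edgeR adjusted p = 0.21 and 0.41). The CXC list then held 1 gene at an unadjusted p under 0.05 on the positive side and 2 on the negative. Ptgs2, the inducible cyclooxygenase, had the largest fitted difference of the genes named, 3.09 (standard error 0.61, edgeR adjusted p = 0.0927), and was not called. Its changes in WT ran from -1.69 to 1.59, so that WT culture p974s850 overlapped the range of 1.57 to 4.44 in Cacnb3-/-.

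The start levels differed before the change was taken. For all 16 called genes the WT median at ctrl lay above the Cacnb3-/- median, with log2 ratios of the medians, Cacnb3-/- over WT, between -3.97 and -1.40 and a median of -2.93. At 24h the WT median was still the higher one for 11 of the 16, and the median of the log2 ratios was -0.44. In WT culture p974s864 the ctrl level lay within or below the Cacnb3-/- range for all 16. Since the ctrl libraries enter both the start level and the change, the 2 are not independent. With all 30 libraries normalized together, mean Fosb at ctrl was 2.32 CPM in WT and 5.42 CPM in Cacnb3-/-. In the libraries named 0p5h it was 121 and 198 CPM, although the treatment entry of these 0p5h libraries reads vehicle. When they replaced the ctrl libraries, all 16 differences stayed above 0, between 0.57 and 2.44, and 15 were at least 2-fold, but 1 gene, Btla, was called (edgeR adjusted p = 0.0027) and the other adjusted p ran up to 0.225. For the interferon list the median difference from 0p5h was 0.56, with 37 of 58 members at an unadjusted p under 0.05 and 0 called. Of all 13424 genes tested from 0p5h, 3817 had such a p in either direction.

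**Figure D3:**
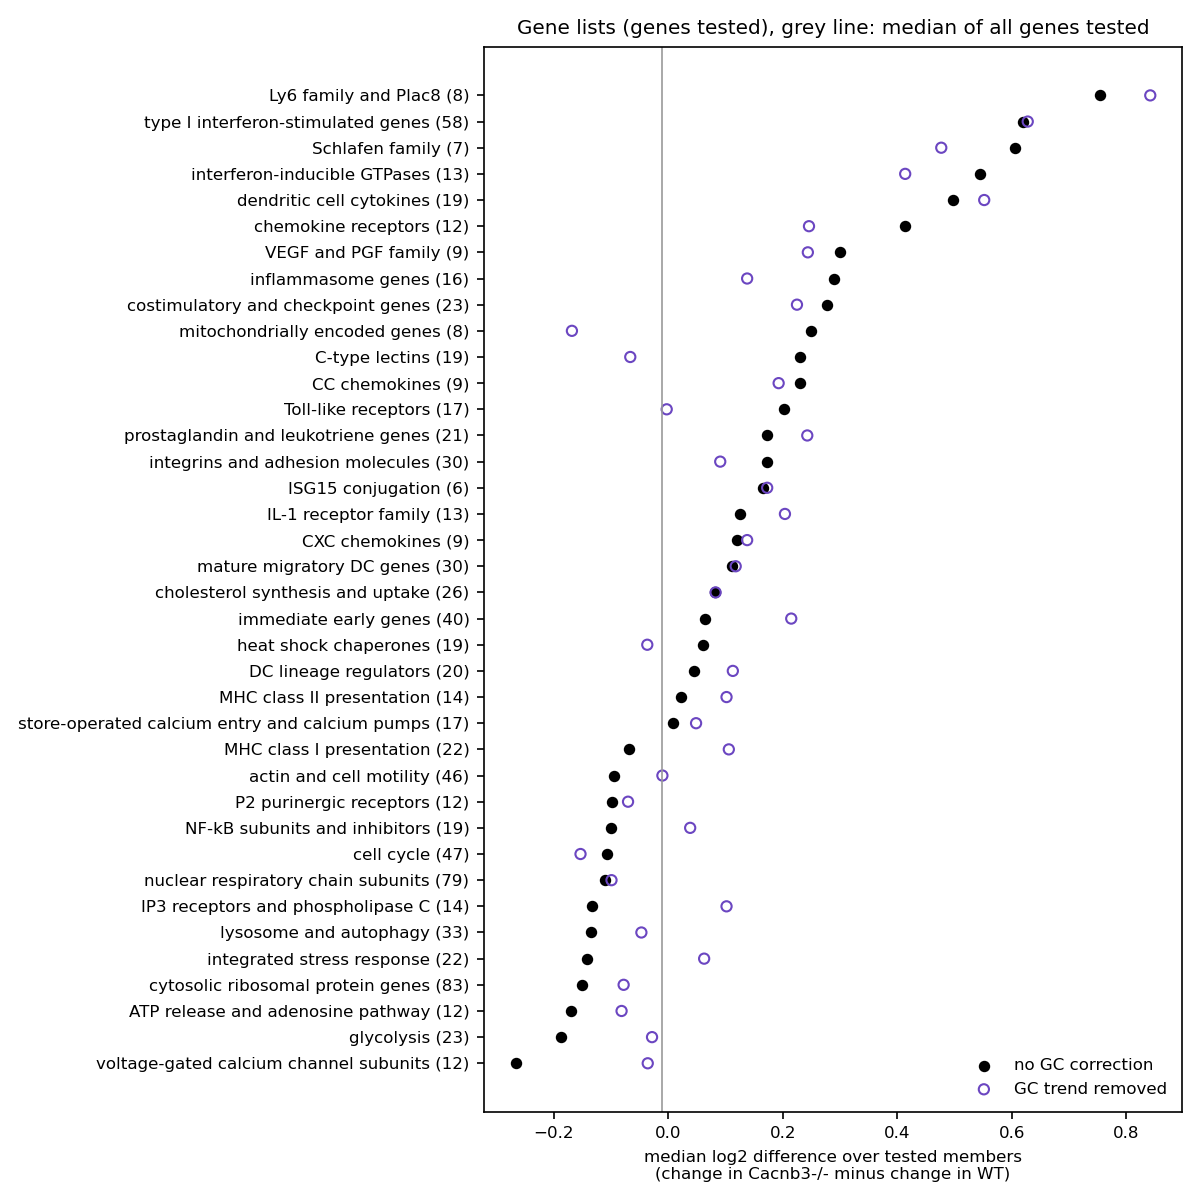
Median log2 difference, change in Cacnb3-/- minus change in WT, over the tested members of each functional gene list (number tested in parentheses), without a correction (black) and with each library's trend on GC content removed (open circles). The Ly6, interferon, Schlafen, GTPase and cytokine lists lie to the right on both scales, while lists such as the mitochondrially encoded genes and C-type lectins move across the grey line at the median of all genes.

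In the other direction 0 genes were called (0%), and DESeq2 with the block called 2, Gdf15 and Ankrd13b. The 12 genes of lowest p are therefore values without a call, and in 8 of them the genotypes were separated (1.14% of all genes). They were picked by p from the same changes, so their separation is no further support either. Eef1a2 (ENSMUSG00000016349, chromosome 2), a translation elongation factor, stood in WT at 38.9, 30.8, 14.4, 15.8 and 59.6 CPM at ctrl and at 41.7, 31.2, 16.6, 21.2 and 43.4 CPM at 24h. In Cacnb3-/- it stood at 88.5, 59.6, 50.1, 60.8 and 41.8 CPM and then at 32.2, 31.2, 28.5, 34 and 29.7 CPM. It fell in all 5 Cacnb3-/- cultures (log2 change -0.90, edgeR adjusted p = 0.00166) to within the WT range, and the difference of -0.95 had an edgeR adjusted p of 0.0927 (standard error 0.19). It was called without Cacnb3-/- culture p974s865 and without WT culture p974s864.

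Apc2, a relative of the Wnt regulator Apc, rose in WT by 1.07 (edgeR adjusted p = 0.0159) and stood at -0.65 in Cacnb3-/-, a difference of -1.73 (standard error 0.39, edgeR adjusted p = 0.159), from levels at or below 1.02 CPM in every library. Ephx1, an epoxide hydrolase, stood at -0.72, Scarf2, a scavenger receptor, at -0.96, and Tpcn1, a calcium channel of endosomes and lysosomes, at -0.72 (edgeR adjusted p = 0.161, 0.196 and 0.207). Gdf15, a stress cytokine, stood at -1.45 and Shmt2, a mitochondrial enzyme of one-carbon metabolism, at -0.61 (edgeR adjusted p = 0.233 for each). The remaining ones were Utf1, Ankrd13b, Psd, Proser2 and Adprs, with differences between -1.16 and -0.57. Plet1, an epithelial and dendritic cell surface protein, fell in both genotypes, by 2.39 in WT and 0.90 in Cacnb3-/- on the log2 scale (edgeR adjusted p = 0.000191 and 0.0209), and the difference of 1.49 was not called (standard error 0.32, edgeR adjusted p = 0.157).

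**Figure D4:**
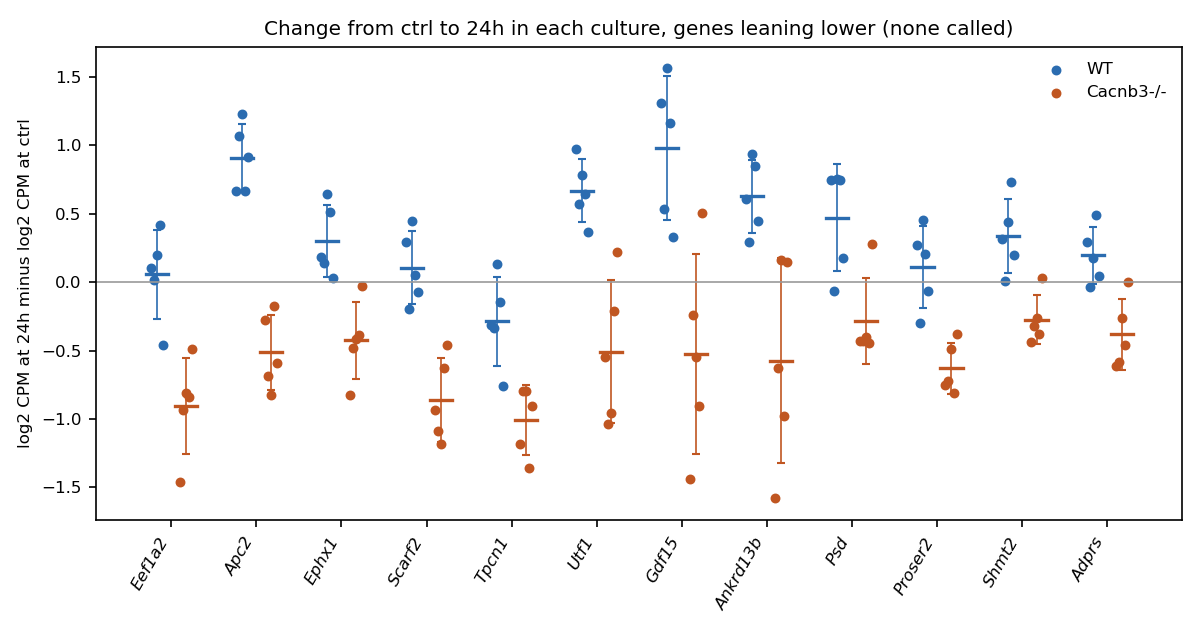
Change from ctrl to 24h (y axis, log2 CPM at 24h minus ctrl, prior count 2) of the 12 genes of lowest p with a more negative change in Cacnb3-/-, none of which was called. Points are cultures, lines means and error bars SD, for 5 WT (blue) and 5 Cacnb3-/- (orange) cultures, which overlap in Gdf15, Psd, Shmt2 and Adprs.

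Housekeeping groups leaned to the negative side by small amounts. Of 83 tested cytosolic ribosomal protein genes, 27 had a positive difference, the median was -0.15, and 15 had an unadjusted p under 0.05 on the negative side against 1 on the positive. Over all genes such a p was found for 8.42% on the negative side and 11.1% on the positive. Of 79 nuclear-encoded respiratory chain subunits 27 were positive, with a median of -0.11. In glycolysis 6 of 23 were positive, with a median of -0.19, and Hk1, a hexokinase, stood at -0.44 (standard error 0.17, edgeR adjusted p = 0.233). Voltage-gated calcium channel subunits had the lowest median of the functional lists, -0.27 over 12 genes, with 5 positive. With GC trends removed their median was -0.04, with 6 positive. By culture their median change was -0.57 in Cacnb3-/- culture p974s843 and between -0.01 and 0.16 in the other cultures of that genotype. Lists near the ATP signal were mixed. Of 12 P2 receptors 6 were positive, of 14 IP3 receptor and phospholipase C genes 5, and of 46 actin and cell motility genes 16, none with a call. With GC trends removed, 5, 9 and 20 of them were positive. MHC class II genes, with 7 of 14 positive, and mature migratory dendritic cell genes, with 18 of 30, held 0 calls. Among immediate early genes, induced within minutes of a stimulus, 23 of 40 were positive, and Fosb stood at -2.21 (standard error 0.85, edgeR adjusted p = 0.233), with changes from -3.57 to 0.95 in Cacnb3-/- and -3.11 to 0.77 in WT.

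GC content moved with the difference across all genes. Over 13383 genes with a GC value the Spearman correlation of the log2 difference with GC content was -0.604, as a description across genes that share the same libraries. The median difference was 0.33 in the fifth of genes with the lowest GC content and -0.30 in the fifth with the highest. With each library's trend on GC content removed, 16 genes were called, 15 of them shared with the first 16, with Tgfbi in and Ifi44 out, and the differences of the first 16 lay between 1.45 and 2.74. The interferon list then had a median of 0.63, but separated genes fell from 321 to 195 in both directions together. On the negative side the lists moved unequally. The median went to -0.08 for ribosomal proteins and to -0.03 for glycolysis, stayed near its value at -0.10 for the respiratory chain, and went from -0.11 to -0.15 for the cell cycle list. Of the 12 genes, Shmt2 moved to -0.30, while Eef1a2 stood at -0.89 (edgeR adjusted p = 0.0611) and Proser2 at -0.80.

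The mitochondrial share rose by 3.54 ± 4.67 percentage points in Cacnb3-/- and by 0.611 ± 0.591 in WT (SD, n = 5; exact permutation test, two-sided, p = 0.0952, adjusted 0.19 over 4 library measures). With this share as a covariate 16 genes were called, 15 of them among the 16. The summed CPM of 24 macrophage-like markers ranged from 4850 to 14900 in WT ctrl, 5560 to 10500 in WT 24h, 6190 to 18200 in Cacnb3-/- ctrl and 4990 to 13900 in Cacnb3-/- 24h. Of these genes 12 of 24 had a positive difference, as had 6 of 12 dendritic cell identity genes, with 0 calls in each. Plasmacytoid dendritic cells are strong interferon producers. The summed CPM of their 12 markers ranged from 478 to 680 in WT ctrl, 490 to 889 in WT 24h, 404 to 866 in Cacnb3-/- ctrl and 479 to 994 in Cacnb3-/- 24h. Most of it came from Bst2 (median 523 CPM), which interferon also induces in other cells, with Spib at 60.7 and Tcf4 at 47.2 CPM, while Siglech did not exceed 0.181 CPM in any of the 20 libraries. Of 7 tested genes of this list 4 were positive. Of 8 stress and RNA quality genes 6 were positive, with a median of 0.36, and of 0.12 with GC trends removed. Of 5 genes known to differ between the C57BL/6J and C57BL/6N substrains 4 were positive, with a median of 0.38, and of 0.25 with GC trends removed. Among these Naip1, an inflammasome receptor, stood at 1.42 (standard error 0.37, edgeR adjusted p = 0.233), with the cultures of the genotypes separated. Both lists leaned the same way as the interferon list and held 0 calls. The part of these lists and shares in the differences was not tested beyond these values. Lane differed between the 2 libraries of a culture in p974s846 and p974s852 only, and with lane as a covariate 8 genes were called.

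**Figure D5:**
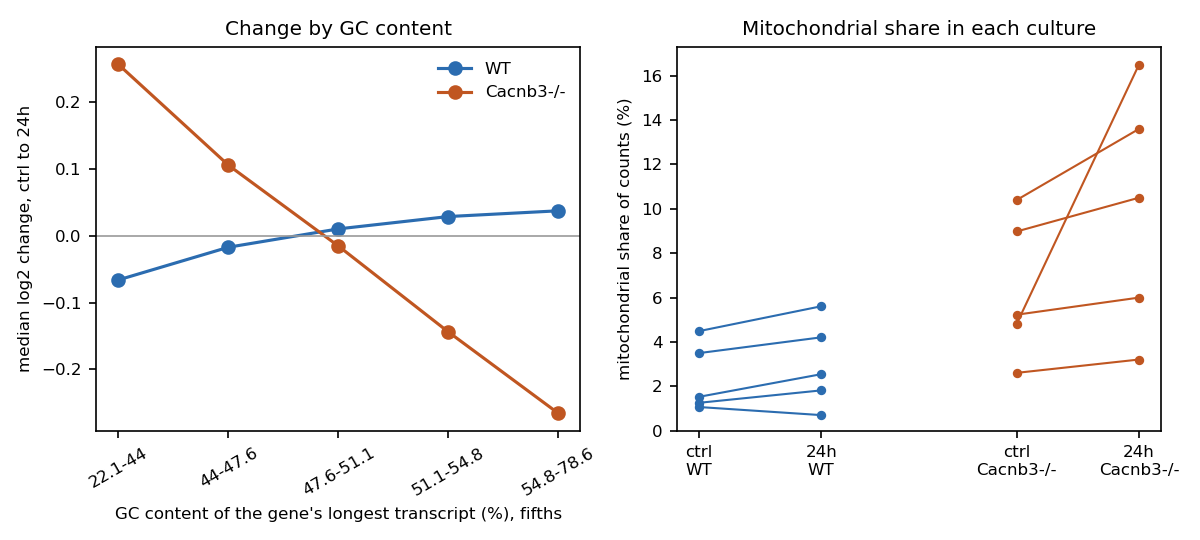
Left, median log2 change from ctrl to 24h of genes in 5 bins of GC content (x axis, %), for WT (blue) and Cacnb3-/- (orange), falling from 0.257 to -0.266 in Cacnb3-/- and rising from -0.066 to 0.0376 in WT. Right, mitochondrial share of counts (%) in the ctrl and 24h library of each culture, where culture p974s843 goes from 4.83% to 16.5%.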

How the data were processed

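The authors deposited raw counts of reads per gene for 43629 genes in 30 libraries. Per the file headers they were made with featureCounts 1.5.1, using exons in the Ensembl 79 annotation (GRCm38), from read 1 and with no strand option set, so overlapping and antisense genes cannot be told apart. The submitters' processing notes name STAR 2.4 and mm10, and the paper's methods a stranded kit, 50-base paired-end reads and GRCm39. Which of these holds for the counts was not given in the sources used here.

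The 20 libraries named ctrl and 24h were grouped by library name and genotype label. Whether a culture number stands for 1 animal is not in the labels. Same-numbered libraries deviated together (correlation over 0.1) in 9 of 10 cultures, with a median of 0.599 against -0.21 for other numbers, the exception being p974s843 (0.0754). In 10 of 10 cultures all libraries agreed in sex. p-values measure the spread between these cultures. Symbols came from GENCODE M39 by Ensembl identifier (89.4% matched).

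R 4.3.3, edgeR 4.0.16 (TMM factors, the default filterByExpr, a quasi-likelihood fit with 1 term per culture and 1 for 24h in each genotype), DESeq2 1.42.0 and limma 3.58.1 were used. Changes by culture are on the log2(CPM) scale with a prior count of 2. GC trends were fitted per library as splines with 4 degrees of freedom. The scripts were tested on simulated data. Depth ranged from 8237393 to 26425018 counts, so genes under about 1 CPM rest on few reads.

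The members, gene lists and tests were chosen with earlier results of these data known. Genes named are all called genes, the 12 of lowest p in each direction, Cacnb3, Plet1, Il1rl2 and Fosb, and up to 4 of lowest p in each list, of which 1 is not reported here. Others, such as Tgfbi, Siglech, Bst2 and Spib, were named after their values were seen. Alternatives were DESeq2, limma-voom, other size factors, no low-count filter, no fold minimum, all 30 libraries, no X or Y genes, GC removal, 0p5h in place of ctrl, no replicate block, a prior count of 0.5 and each culture left out. Lane and mitochondrial share as covariates were added after seeing the data. Promoter windows were RefSeq's (GRCm38.p6).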

Additional observations from a re-analysis of the deposited data

Results flagged for a closer look

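For 16 genes the genotypes differed in their change to 24h, as described above. The next values concern 1 culture lying far from the other 4 of its genotype. In Cacnb3-/- culture p974s843 the mitochondrial share rose by 11.7 percentage points, a log2 change of 1.78, against rises of 0.598 to 3.16 points in the other 4 cultures of that genotype. The same culture had a log2 change of 0.95 in Fosb, an AP-1 subunit, while the other 4 had -3.57 to -3.04. In Cacnb3-/- culture p974s865, Plet1 changed by -2.15, against -0.68 to -0.39 in the other 4, and Psd by 0.28, against -0.44 to -0.40. In WT culture p974s846, Ifi44 changed by 1.03, against -0.36 to 0.03 in the other 4. Of 64 groups of 5 gene changes examined, 4 stood out in this way, and chance alone gives about 1 in 20.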

How the results depend on the processing

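The count of 16 called genes was 0 with no replicate block (658 genes at an unadjusted p under 0.05), 50 in DESeq2 with the block (48 higher and 2 lower), 129 with no filter on low counts (104 higher and 25 lower), 27 with all 30 libraries in one fit, 1 from 0p5h in place of ctrl and 8 with lane as a covariate. It was 14 in limma-voom and 16 with other size factors, with no fold minimum, without genes of chromosomes X and Y, with GC trends removed and with the mitochondrial share as a covariate. Leaving out 1 culture gave 6 to 44. The cause was not tested. The 16 genes kept a positive difference in all 22 other settings, between 0.57 and 3.32, and Btla was called in 21 of these, all but the one without the block. The 321 genes separated between genotypes became 195 with GC trends removed, 552 from 0p5h in place of ctrl, and 382 to 1348 with 1 culture left out, where fewer cultures are easier to separate. The median of the interferon list lay between 0.52 and 0.78 over all settings. Without the block, however, 9 of its 58 members had an unadjusted p under 0.05, against 40 in the main fit. Of the 58, 0 were called without the block and 0 from 0p5h in place of ctrl. Of the list members at an unadjusted p under 0.05, Casp1 turned to -0.0846 with GC trends removed and Ear2 to 0.0534 without the block. Low counts limit Ifi44, Ifi205 and Ifi206 most, with 3 to 20 reads per Cacnb3-/- ctrl library. Reads were also few for Btla (10 to 32 per such library) and Plac8 (9 to 37), and in places for Ly6i (12 to 304).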

Other observations

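Groups near the inflammatory genes held no call. Of 19 tested C-type lectins, receptors for sugars on microbes and dying cells, 15 had a more positive change in Cacnb3-/- with a median of 0.23, but the median was -0.07 with GC trends removed. Clec4e, which senses a mycobacterial lipid, stood at 1.21 (standard error 0.35, edgeR adjusted p = 0.233), and Clec7a, the receptor of beta-glucan, at 0.90 (standard error 0.25, edgeR adjusted p = 0.233). Of 21 prostaglandin and leukotriene genes 14 were positive, with a median of 0.17 and of 0.24 with GC trends removed. Beside Ptgs2, Ptges, which makes prostaglandin E2 from its product, stood at 1.07 (standard error 0.29, edgeR adjusted p = 0.233). Of 12 genes of ATP release and adenosine handling 4 were positive, and those 4 all had an unadjusted p under 0.05 (11.1% of all genes on this side). They were Enpp2 at 1.51, Nt5e, the ecto-nucleotidase CD73, at 0.82, Adora2b, an adenosine receptor, at 1.004, and Panx1, a channel for ATP, at 0.28, with edgeR adjusted p from 0.233 to 0.247. Apoe, a lipid carrier of macrophages, stood at -1.19 (standard error 0.35, edgeR adjusted p = 0.233) and was called without WT culture p974s864. Hdc, which makes histamine, stood at 1.52 (standard error 0.30, edgeR adjusted p = 0.0864) from 13 to 110 reads per ctrl library.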
